A study of Mus musculus with 9 samples.

Results

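The lung meets inhaled and blood-borne chemicals with a set of enzymes that oxidise, hydrolyse and conjugate them, and the genes of these enzymes were followed here in mice that carried a human CFTR transgene. The members were taken by symbol: every probe set with 1 gene symbol of the families Cyp1 to Cyp4, Gsta, Gstm, Gstp, Gstt, Gstk, Gsto, Ces, Fmo, Ugt and Aldh. Cyp2f2, Gsta3, Fmo2 and Aldh1a1 were left out by the rule. This gave 135 probe sets of 101 genes, of 22626 probe sets of 12393 genes in all. Of these, 62 probe sets of 49 genes were tested: their mean log2 signal over all arrays was at or above the 40th percentile, a signal of 477. The other 73 are described by their levels only.

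Total RNA of whole lung from adult FVB/N mice was hybridised to Affymetrix mouse 430A arrays, 1 sample an array and 9 arrays in all. HO mice carried 2 SP-C-hCFTR alleles and HE mice 1, and WT mice carried none. All 3 groups kept both copies of mouse Cftr, and each was measured on 3 arrays. The transgene is a human CFTR cDNA under the promoter of Sftpc, which is active in respiratory epithelial cells, so any response of other lung cells would be indirect. One array, HO replicate 2, is titled and genotyped as carrying 2 alleles while its description gives 1; it was kept as HO. The samples are called triplicates, and the labels do not say that each came from its own animal, so a p-value measures the spread between these samples, which may be technical.

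CFTR is the chloride and bicarbonate channel of epithelia. Drug metabolism runs in steps: cytochromes P450 (Cyp) and flavin monooxygenases (Fmo) oxidise a compound, carboxylesterases (Ces) split esters, aldehyde dehydrogenases (Aldh) turn reactive aldehydes into acids, and glutathione S-transferases (Gst) and UDP-glucuronosyltransferases (Ugt) attach glutathione or a sugar. Club cells of the airway hold much of the P450 activity of the mouse lung. Several of the genes are switched on by receptors and sensors of foreign compounds, among them AHR, CAR, PXR and NRF2. In whole lung, fewer cells of a type and less RNA per cell cannot be told apart.

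The arrays were close in overall signal, with medians from 697 to 742, and the ratio of 3' to 5' Actb probe sets ran from 1.07 to 1.39. Lung identity was plain: 9 of 9 alveolar type II markers on the array were above the signal threshold, and their summed signal ran from 222885 to 273772. None of 11 hepatocyte markers on the array was above it, with a summed signal of 1656 to 2312. Any part of liver RNA in the P450 readings was not tested. The mouse Cftr probe set read 959.7, 1119 and 1028 in HO lungs, 1098, 996 and 1039 in HE lungs and 958, 1201 and 904 in WT lungs. It was designed on the mouse transcript, whether it binds the human one was not tested, and so it does not check the genotype labels. The number in each title (1, 2 or 3) goes with a first number of 3, 9 or 11 in the source name, here called source set 3, 9 and 11. Each source set holds 1 HO, 1 HE and 1 WT array, and the labels do not say what the number marks.

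No enzyme gene passed the test between genotypes. At an adjusted p under 0.05 in limma, 0 of 62 member probe sets were called for HO against WT, HE against WT, HO against HE, or both transgenic groups together (TG) against WT. The background was the same, 0 percent of the 13576 probe sets tested in each comparison. The lowest adjusted p among members was 0.992 for HO against WT and 1.0 in the other comparisons. At an unadjusted p under 0.05, 1 member (1.61%) was counted for HO against WT, against 4.49% of all probe sets. The member shares were 3.23% for HE against WT (background 3.11%), 1.61% for HO against HE (background 2.56%) and 4.84% for TG against WT (background 4.19%). The member shares lay near the background or below it.

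The median log2 difference of the 62 members was 0.01 for HO minus WT, -0.02 for HE minus WT, 0.02 for HO minus HE and -0.01 for TG minus WT. Over all probe sets tested the medians were -0.00, -0.01, 0.01 and -0.01, in the same order. Differences above 0 numbered 34 of 62 for HO minus WT (54.8%, background 48.8%). For HE minus WT they numbered 26 of 62 (41.9%, background 47.8%). These comparisons share the WT arrays. The precision bounds what could have been seen: the median 95% interval of a member reached 0.36 log2 to either side for HO minus WT. A difference past 1 on the log2 scale lay inside the interval of 3 of 62 members for HO minus WT (4.84%, background 3.30%). For HE minus WT it lay inside that of 6 (9.68%, background 3.03%): Aldh18a1, Aldh1a2, Ces4a, Cyp1a1, Cyp2e1 and Cyp3a11.

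**Figure D1:**
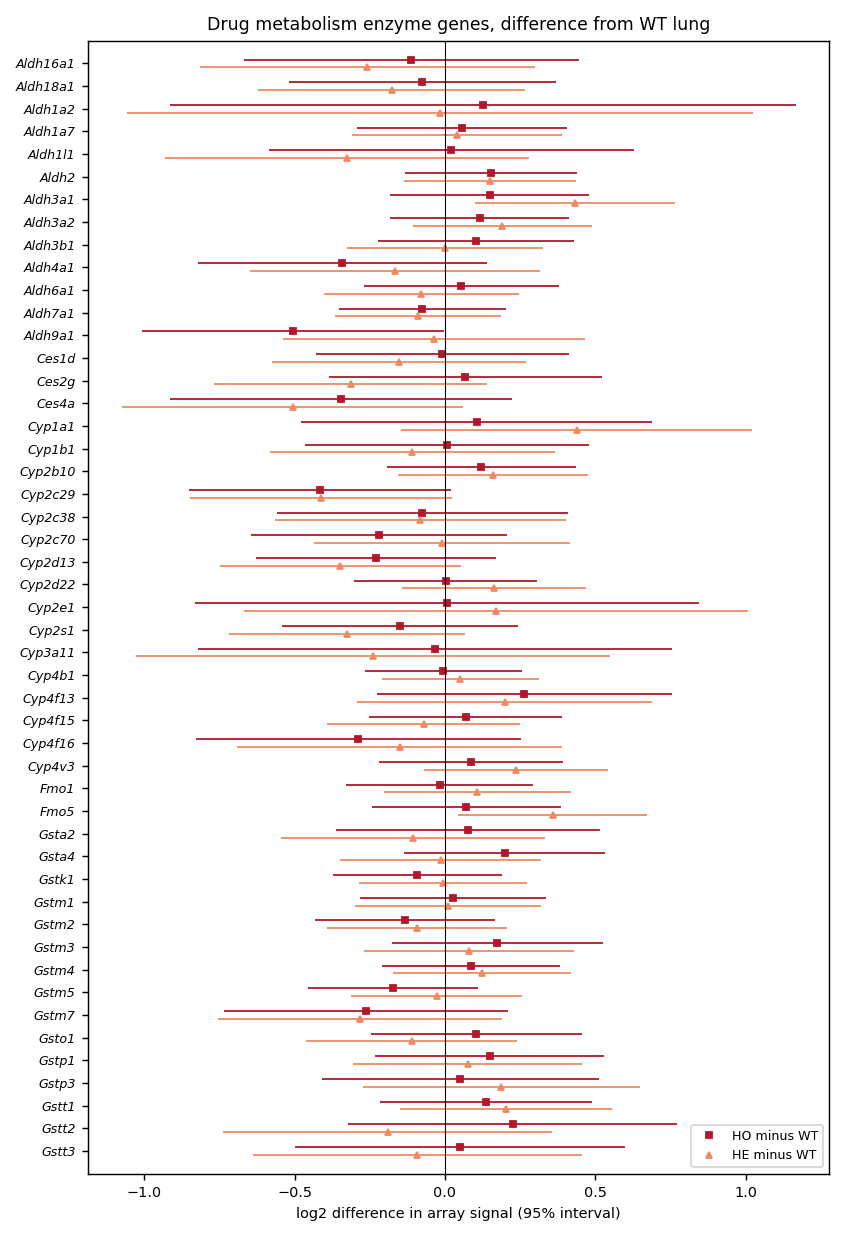
Log2 difference in array signal from WT lung for 49 enzyme genes, each at its tested probe set of highest mean, with its 95% interval (squares, HO minus WT; triangles, HE minus WT). The points lie between -0.51 and 0.44, and every interval shown crosses 0 except that of Aldh9a1 for HO and those of Aldh3a1 and Fmo5 for HE; Aldh1a2, Cyp2e1 and Cyp3a11 have broad intervals.

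Few members had groups that did not overlap in signal. For HO against WT, 2 of 62 members did not overlap (3.23%, background 8.88%): Aldh9a1 at probe set 1437398_a_at, and Gstm3. For HE against WT there were 5 (8.06%, background 7.70%), all higher in HE: Aldh2, Aldh3a1, Aldh3a2, Cyp4v3 and Fmo5. By direction, the background was 3.25% with HE higher and 4.45% with HE lower, and the difference in shares was not tested. For HO against HE there were 3 (4.84%, background 6.66%), all lower in HO: Aldh9a1 at 1436689_a_at and both probe sets of Fmo5. The background with HO lower was 3.19%, and with HO higher 3.47%. For TG against WT there were 0, against a background of 2.08%.

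Single arrays moved the small counts of members at an unadjusted p under 0.05. The shares of all probe sets without each array are not given here, so these moves do not set the members apart from other genes. For HO against WT the count was 4 without WT replicate 2, 3 without WT replicate 3 and 0 without HO replicate 1 or any 1 HE array. For HE against WT it was 7 without WT replicate 2, 6 without HE replicate 1, 4 without HE replicate 3 and 1 without WT replicate 1 or 3. For HO against HE it was 3 without HO replicate 3 or WT replicate 2, and 2 without HE replicate 1 or WT replicate 3. For TG against WT it was 0 without WT replicate 1 and 1 without HO replicate 2, HO replicate 3, HE replicate 2 or HE replicate 3.

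The Cyp1 P450s, described first, oxidise polycyclic aromatic hydrocarbons and are the best known targets of the aryl hydrocarbon receptor AHR. Cyp1a1 read 1497, 2927 and 2975 in HO lungs, 2232, 3156 and 3702 in HE lungs and 2231, 1909 and 2460.0 in WT lungs. Both the highest and the lowest arrays were transgenic, and the groups overlapped. The difference was 0.11 ± 0.27 (SE) for HO minus WT and 0.44 ± 0.27 for HE minus WT, the second a 1.36-fold difference with a 95% interval of -0.15 to 1.02 on the log2 scale. Cyp1b1 read 992, 772 and 605 in HO lungs, 913, 703 and 568 in HE lungs and 912, 699.7 and 715 in WT lungs. Its difference was 0.01 ± 0.22 for HO minus WT and -0.11 ± 0.22 for HE minus WT, close to 0 in both. Cyp1a2, the Cyp1 enzyme of liver, was under the threshold, at 16.1 to 50.8 on the 9 arrays.

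Upstream sequence is shown for Cyp1a1 and Cyp1b1, whose order across the source sets was opposite (described further on), and for Cyp2e1, the member with the lowest p across source sets. Each is the 250 bases before the annotated start, 5′ to 3′ on the gene's strand, from RefSeq on GRCm38.p6, with the core motif of the AHR response element, GCGTG, in capitals (CACGC where it lies on the other strand). Cyp1a1 is at chr9:57697363-57697612 on the plus strand, Cyp1b1 at chr17:79715062-79715311 on the minus strand and Cyp2e1 at chr7:140763569-140763818 on the plus strand.
Cyp1a1: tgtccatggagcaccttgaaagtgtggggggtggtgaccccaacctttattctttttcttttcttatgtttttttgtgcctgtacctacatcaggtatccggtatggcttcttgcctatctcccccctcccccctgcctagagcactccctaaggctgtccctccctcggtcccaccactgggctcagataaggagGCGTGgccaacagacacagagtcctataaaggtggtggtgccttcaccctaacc
Cyp1b1: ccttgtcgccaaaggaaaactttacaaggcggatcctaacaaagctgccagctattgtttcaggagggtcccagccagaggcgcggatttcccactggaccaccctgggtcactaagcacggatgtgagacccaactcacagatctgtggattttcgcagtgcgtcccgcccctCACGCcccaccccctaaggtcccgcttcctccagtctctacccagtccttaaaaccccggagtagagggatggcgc
Cyp2e1: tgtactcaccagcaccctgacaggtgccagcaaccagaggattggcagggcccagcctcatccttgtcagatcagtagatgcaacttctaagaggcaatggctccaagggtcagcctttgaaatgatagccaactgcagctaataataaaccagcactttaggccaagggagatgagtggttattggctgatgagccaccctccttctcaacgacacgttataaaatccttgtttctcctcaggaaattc
The core stands once in the Cyp1a1 window, at -54 from the start, and once in the Cyp1b1 window, at -76 on the other strand. The Cyp2e1 window does not hold these letters. Searched on both strands, GCGTG was found in 35.6% of the 45 windows of tested members and in 28.2% of 32851 RefSeq windows of the same length. The antioxidant response element core TGANNNNGC was found in 42.2% of member windows and 35.2% of all windows, the D-box TTANGTAA in 2.22% and 2.06%, and the E-box CACGTG in 6.67% and 6.02%. GCGTG and CACGTG share their last letters but neither contains the other.

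The Cyp2 family gave 11 tested probe sets of 8 genes, out of 35 probe sets of 30 genes on the array. Cyp2b10, the P450 best known as a target of the receptor CAR, had 3 probe sets, and at that of highest mean, 1425645_s_at, it read 13963, 14559.7 and 12739 in HO lungs, 12281, 15439 and 14799 in HE lungs and 11683, 14607 and 11794 in WT lungs. The groups overlapped, with differences of 0.12 ± 0.14 for HO minus WT and 0.16 ± 0.14 for HE minus WT. At 1451787_at the HO difference was 0.24 ± 0.14, and at 1422257_s_at it was 0.16 ± 0.17. For HE minus WT the 3 probe sets gave 0.16, 0.04 and -0.02, so they did not share a sign. Probe sets ending in _s_at match several transcripts, and close Cyp2b relatives may add to these readings.

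Cyp2c29, which belongs to a subfamily of arachidonic acid and drug oxidisers, was the member of lowest p for TG against WT. It read 446, 380.1 and 547 in HO lungs, 447, 380.0 and 547 in HE lungs and 742, 487 and 608 in WT lungs. The HO and HE arrays of source sets 3 and 9 were below all WT arrays, and those of source set 11 lay between the WT arrays. The HO and HE readings nearly coincided within each source set. The difference was -0.41 ± 0.20 for HO minus WT and -0.41 ± 0.20 for HE minus WT. TG minus WT was -0.41 ± 0.17 (95% interval -0.79 to -0.04), a 0.75-fold level with an unadjusted p of 0.0344 and an adjusted p of 1.0 in limma. Within source sets 3, 9 and 11 the HO minus WT difference was -0.74, -0.36 and -0.15, the same sign in all 3. In this comparison 18 member probe sets kept 1 sign in all 3, so that alone does not set Cyp2c29 apart. Without WT replicate 1, the highest array, TG minus WT was -0.26. The signal is near the threshold of 477.

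Cyp2d22, of the subfamily that in humans holds the drug oxidiser CYP2D6, had a pair of probe sets that differed. At 1419039_at it read 1820.4, 2136 and 2001 in HO lungs, 1814, 2402 and 2072 in HE lungs and 1409.6, 1619 and 1955 in WT lungs. TG minus WT was 0.30 ± 0.14, with an unadjusted p of 0.0483 and an adjusted p of 1.0 in limma. At 1419040_at it read 2757, 3001 and 2684 in HO lungs, 2786, 3789 and 2936 in HE lungs and 2845, 2812 and 2765 in WT lungs, and TG minus WT was 0.08 ± 0.12. At the first probe set 4 of the 6 transgenic arrays were above all WT arrays, and at the second 1 HE array stood alone. Without WT replicate 1, TG minus WT at 1419039_at was 0.19.

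The other Cyp2 members lay within their spread. Cyp2s1, an epithelial P450 found outside the liver, averaged 6805 ± 857 in HO, 6109.8 ± 1514 in HE and 7530.1 ± 695 in WT lungs (SD, n = 3 each). Cyp2e1, the ethanol-oxidising P450, averaged 1360.1 ± 699 in HO, 1439 ± 494 in HE and 1242 ± 267 in WT lungs (SD, n = 3 each). Cyp2d13 differed by -0.23 ± 0.18 for HO minus WT and -0.35 ± 0.18 for HE minus WT. Cyp2c38 and Cyp2c70 differed by -0.08 ± 0.22 and -0.22 ± 0.19 for HO minus WT. Of Cyp3, whose genes are the classic targets of the receptor PXR, 1 of 5 genes was tested: Cyp3a11 read 593, 409.8 and 781 in HO lungs, 515, 715 and 335 in HE lungs and 678, 347 and 862 in WT lungs, with low and high arrays in every group.

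Among the Cyp4 P450s, which hydroxylate fatty acids at their far end, Cyp4b1 also activates pneumotoxins in lung. It was the steadiest member, with a range over the 9 arrays of 0.22 on the log2 scale. It read 20852, 22806 and 21777 in HO lungs, 22269, 21553 and 24297 in HE lungs and 21240.3, 23514 and 20976 in WT lungs. HO minus WT was -0.01 ± 0.12 with a 95% interval of -0.27 to 0.26, and HE minus WT was 0.05 ± 0.12 with an interval of -0.21 to 0.31. A signal this high may be near saturation, which was not tested. Cyp4v3 at 1417071_s_at averaged 2070.0 ± 328 in HO, 2279.6 ± 132 in HE and 1935 ± 109 in WT lungs (SD, n = 3 each), a difference of 0.24 ± 0.14 for HE minus WT. At its other probe set, 1417070_at, that difference was -0.17 ± 0.15. Of the Cyp4f genes, which in part act on leukotrienes, Cyp4f13, Cyp4f15 and Cyp4f16 differed by 0.26 ± 0.22, 0.07 ± 0.15 and -0.29 ± 0.25 for HO minus WT.

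Flavin monooxygenases oxidise nitrogen and sulphur in drugs, and 3 probe sets of 2 genes were tested. Fmo1 read 12769, 16255 and 14530.3 in HO lungs, 14579.7, 15126 and 17777 in HE lungs and 13256, 15342 and 15399 in WT lungs, with overlapping groups and differences of -0.02 ± 0.14 for HO minus WT and 0.11 ± 0.14 for HE minus WT. Fmo5, which inserts oxygen beside carbonyl groups, read 1203, 1285 and 1067 in HO lungs, 1373, 1607 and 1357 in HE lungs and 977, 1276 and 1139.9 in WT lungs at 1450332_s_at. All 3 HE arrays lay above all HO and all WT arrays. HE minus WT was 0.36 ± 0.14 (unadjusted p 0.0294, adjusted p 1.0 in limma), a 1.28-fold difference, and HO minus WT was 0.07 ± 0.14. At its other probe set, 1421709_a_at, Fmo5 read 550.3, 610.2 and 618 in HO lungs, 699.5, 814 and 820.1 in HE lungs and 691, 835 and 612 in WT lungs. There HO minus HE was -0.39 ± 0.14 (unadjusted p 0.0202, adjusted p 1.0 in limma), and within source sets 3, 9 and 11 it was -0.35, -0.42 and -0.41. At this probe set HE minus WT was 0.13 ± 0.14, and HE overlapped WT. The level with 1 allele was thus above the level with 2 alleles at both probe sets, and the probe sets differed on where WT lay.

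Aldehyde dehydrogenases gave 15 tested probe sets of 13 genes, the most of any family when Cyp and Gst are split as in the opening list. Aldh3a1, which oxidises aromatic and medium-chain aldehydes, read 1868, 1290.0 and 1554 in HO lungs, 2038, 1782 and 1859.5 in HE lungs and 1480.4, 1446 and 1285 in WT lungs. The 3 HE arrays lay above the 3 WT arrays, while HO arrays lay on both sides of them. HE minus WT was 0.43 ± 0.15 (95% interval 0.10 to 0.76), a 1.35-fold difference with an unadjusted p of 0.0154 and an adjusted p of 1.0 in limma. Within source sets 3, 9 and 11 it was 0.46, 0.30 and 0.53. HO minus WT was 0.15 ± 0.15, and HO minus HE was -0.28 ± 0.15, or -0.15 without HO replicate 2.

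Aldh9a1, which makes a precursor of carnitine, had the lowest p among members for HO against WT, at 1436689_a_at. It read 2292, 1899.6 and 2128 in HO lungs, 2943, 2794 and 2996 in HE lungs and 2601, 4634 and 2199 in WT lungs. One array, WT replicate 2, stood far above the rest, and HO overlapped WT. HO minus WT was -0.51 ± 0.23 (unadjusted p 0.0488, adjusted p 0.992 in limma), and within source sets 3, 9 and 11 it was -0.18, -1.29 and -0.05. Without WT replicate 2 it was -0.19. At its other probe set, 1437398_a_at, HO minus WT was 0.10 ± 0.13, of the opposite sign.

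The other aldehyde dehydrogenases did not pass the test either. Aldh2, the mitochondrial enzyme of acetaldehyde, read 13032, 13550.4 and 11215 in HO lungs, 11686, 14079.5 and 11953 in HE lungs and 11548, 11447 and 10918 in WT lungs, with differences of 0.15 ± 0.13 for HO minus WT and 0.15 ± 0.13 for HE minus WT. The HE arrays and 2 of the 3 HO arrays were above all WT arrays. Aldh3a2, the fatty aldehyde dehydrogenase, differed by 0.12 ± 0.14 for HO minus WT and 0.19 ± 0.14 for HE minus WT. Aldh1a7, a rodent relative of the retinaldehyde dehydrogenases, differed by 0.06 ± 0.16 and 0.04 ± 0.16, and Aldh3b1 by 0.10 ± 0.15 and -0.00 ± 0.15, HO minus WT first. Several members of the family serve amino acid or carnitine metabolism more than drugs, among them Aldh4a1, Aldh6a1, Aldh7a1, Aldh9a1 and Aldh18a1. Of these, Aldh4a1 in proline breakdown differed by -0.34 ± 0.22 for HO minus WT, with 1368, 794 and 1494 in HO against 1652, 1379 and 1447 in WT lungs, and HO replicate 2 was the lowest of the 9 arrays. Without HO replicate 2 the Aldh4a1 difference was -0.06, and without HO replicate 3 it was -0.51. Aldh18a1, of proline synthesis, had probe sets that differed in size. At 1437325_x_at it read 509.7, 592 and 513 in HO lungs, 759.5, 389 and 401 in HE lungs and 1003, 402 and 790.3 in WT lungs, a difference of -0.35 ± 0.32 for HO minus WT and -0.48 ± 0.32 for HE minus WT, the second the lowest of the family in that comparison. At 1435855_x_at the differences were -0.08 ± 0.20 and -0.18 ± 0.20. Aldh16a1 and Aldh1l1 differed by -0.26 ± 0.25 and -0.33 ± 0.28 for HE minus WT. Aldh6a1 differed by 0.05 ± 0.15 and Aldh7a1 by -0.08 ± 0.13 for HO minus WT.

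**Figure D2:**
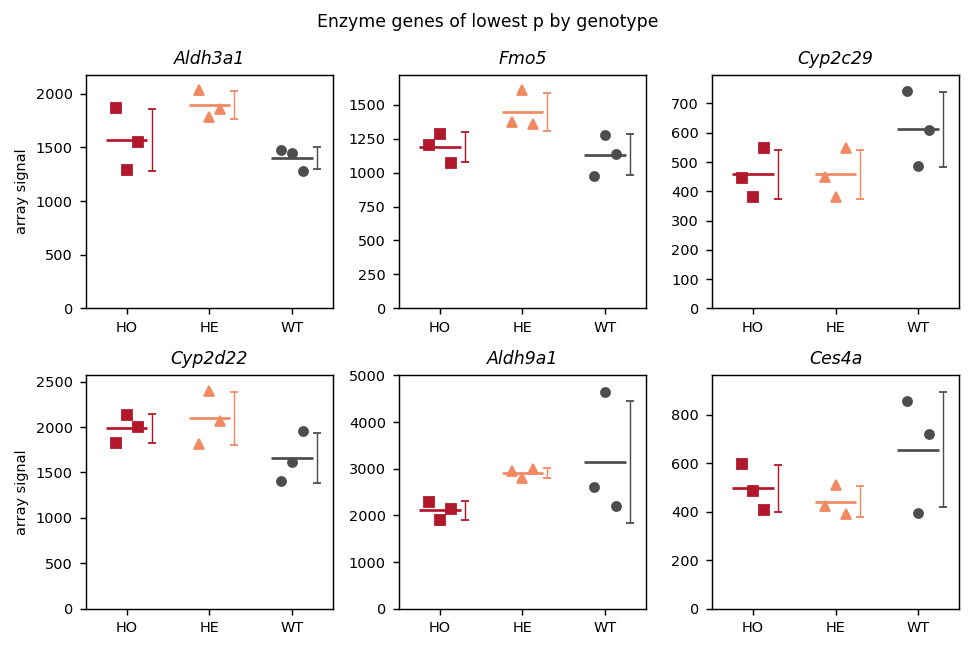
Array signal (linear, from 0) of 6 enzyme genes in HO (squares), HE (triangles) and WT (circles) lungs, 3 arrays each, with the group mean (line) and SD (bar at the right); Fmo5 is shown at 1450332_s_at, Cyp2d22 at 1419039_at and Aldh9a1 at 1436689_a_at. HE lay above WT for Aldh3a1 and Fmo5, and 1 WT array carried the WT mean of Aldh9a1.

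Carboxylesterases were measured by 5 tested probe sets of 3 genes. Ces1d, an esterase and lipase, read 13969, 12667 and 11204 in HO lungs, 10732, 10510.2 and 13039 in HE lungs and 11949, 17002 and 9949 in WT lungs at 1449081_at, and the HO minus WT difference was -0.01 ± 0.19. The highest and the lowest arrays were both WT. Ces4a read 596, 487 and 405 in HO lungs, 424, 511 and 389 in HE lungs and 854, 394 and 719 in WT lungs. The difference was -0.35 ± 0.26 for HO minus WT and -0.51 ± 0.26 for HE minus WT. Within source sets 3, 9 and 11 the HE minus WT difference was -1.01, 0.38 and -0.89, so its sign was opposite in source set 9. It was -0.28 without WT replicate 1 and -0.84 without WT replicate 2. Ces2g averaged 1331 ± 247 in HO, 1015 ± 152 in HE and 1279.7 ± 302 in WT lungs (SD, n = 3 each), with HO minus HE at 0.38 ± 0.21. Ces1f and Ces1g lay just under the threshold, at 254 to 649 and 331 to 565 over the 9 arrays.

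Of the glutathione S-transferases, the mu class gave 9 tested probe sets of 6 genes. Gstm1 read 14332, 16653 and 13586 in HO lungs, 16197, 12633 and 15261 in HE lungs and 15273, 13416 and 14958 in WT lungs at 1416416_x_at, its probe set of highest mean. HO minus WT was 0.03 ± 0.14 (95% interval -0.28 to 0.34) and HE minus WT was 0.01 ± 0.14. Its probe sets spread: 1425627_x_at gave -0.35 ± 0.16 for HE minus WT (-0.19 without HE replicate 2) and 1448330_at gave 0.12 ± 0.14. Probe sets ending in _x_at hold probes that also match other transcripts, and the mu-class genes are near-identical in places, so these readings are uncertain. Gstm2 differed by -0.13 ± 0.14 for HO minus WT, Gstm4 by 0.09 ± 0.13, Gstm5 by -0.17 ± 0.13 and Gstm7 by -0.26 ± 0.21.

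Gstm3 read 1246, 1395 and 1277 in HO lungs, 949, 1427 and 1343 in HE lungs and 1221, 1093 and 1157 in WT lungs. All HO arrays were above all WT arrays, while HE held both the lowest and the highest array. HO minus WT was 0.17 ± 0.16. The pi-class Gstp1, which conjugates electrophiles and was long used as a marker of altered liver cells in rats, averaged 11434 ± 1269 in HO, 10884 ± 1406 in HE and 10441 ± 2310.1 in WT lungs (SD, n = 3 each). The alpha-class Gsta4, which takes up lipid peroxidation aldehydes, differed by 0.20 ± 0.15 for HO minus WT and Gsta2 by 0.08 ± 0.20. Gstt1 of the theta class differed by 0.14 ± 0.16, the omega-class Gsto1 by 0.10 ± 0.16 and the kappa-class Gstk1 of mitochondria and peroxisomes by -0.09 ± 0.13, all HO minus WT. Gstt2 had the largest positive difference for HO minus HE among members, 0.41 ± 0.25, and read 831, 1213 and 832 in HO lungs, 639, 1073 and 517 in HE lungs and 848, 876 and 707 in WT lungs. Its arrays of all 3 groups overlapped. HO minus HE was 0.19 without HE replicate 3, 0.71 without HE replicate 2, 0.23 without HO replicate 2 and 0.04 when that array was moved to HE.

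UDP-glucuronosyltransferases, the sugar-attaching enzymes, were all under the threshold: 12 probe sets of 9 genes, with mean signals from 5.94 to 309. Ugt2b1 read 332, 332 and 281 in HO lungs, 249, 230.2 and 274 in HE lungs and 439.9, 413 and 228 in WT lungs, and the WT arrays held both the highest and the lowest reading. Ugt3a1 read 225, 211 and 48.8 in HO lungs, 163, 434 and 279 in HE lungs and 363, 59.9 and 469 in WT lungs, with overlapping groups. The 73 members under the threshold had mean signals from 5.94 to 477 with a median of 173. Of these, 30 were under 100, and 4 were at or under the floor of 25.5 on all 9 arrays. No difference is given for them. The nearest members outside the threshold were Aldh8a1 (389 to 567 over the 9 arrays) and Cyp2b9 (354 to 562), and among the nearest inside it was Cyp2c29 (380.0 to 742).

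Genes that work with or regulate the enzymes were read from lists chosen with earlier results of these data known. At an adjusted p under 0.05, 0 genes passed in any genotype comparison in any of these lists. The lists held 11 tested xenobiotic receptors and regulators, 5 AHR-responsive and 16 NRF2-responsive genes outside the families, 6 electron donors of P450s, 21 other oxidising, reducing or hydrolysing enzymes, 11 other conjugating enzymes and 7 transporters. At an unadjusted p under 0.05, 1 of these genes was counted for HO against WT, where 4.49% of all probe sets were. It was Sult1a1, which attaches sulphate to phenols. It read 1924, 2249.8 and 2595 in HO lungs, 1764, 2473 and 2475 in HE lungs and 1624, 1469.8 and 1165 in WT lungs. Every transgenic array was above every WT array, an order that 0.854% of all probe sets tested had. HO minus WT was 0.67 ± 0.18 (adjusted p 0.992) and HE minus WT was 0.65 ± 0.18 (adjusted p 1.0) in limma. Among the donors, Cyb5a, the cytochrome b5 of the endoplasmic reticulum, differed by -0.00 ± 0.12 for HO minus WT and Cyb5r3, its reductase, by 0.08 ± 0.19. Nfe2l2, which encodes NRF2, differed by 0.08 ± 0.11, and Tiparp, an AHR target, by 0.08 ± 0.16 for HO minus WT and 0.28 ± 0.16 for HE minus WT.

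The 4 enzyme genes that the rule left out stand in the club cell marker list used here. Gsta3, an alpha-class transferase, read 3059, 3986 and 3152 in HO lungs, 2890.3, 3872 and 2955 in HE lungs and 2146, 2665 and 2386 in WT lungs at 1423436_at. All 6 transgenic arrays were above the 3 WT arrays, with TG minus WT at 0.46 ± 0.14 (adjusted p 1.0 in limma). Of all probe sets tested, 0.854% had this order. Cyp2f2 differed by 0.06 ± 0.16 for HO minus WT, Aldh1a1 by 0.18 ± 0.13 and Fmo2 by 0.20 ± 0.21 at 1422905_s_at. Whether these differ from the members was not tested.

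More enzyme genes were counted between source sets than between genotypes, though none passed the adjusted threshold, and that difference was not tested. A moderated F test over source sets, with genotype in the fit, gave 0 of 62 members at an adjusted p under 0.05, against 0.0147% of all probe sets. The lowest adjusted p among members was 0.254. At an unadjusted p under 0.05, 16 of 62 members were counted (25.8%), against 12.0% of all probe sets tested. Of the 16, 11 were highest in source set 3 (17.7% of members, background 4.19%), 3 in source set 9 (4.84%, background 3.24%) and 2 in source set 11 (3.23%, background 4.60%). The 16 belong to 16 genes measured on the same 9 arrays. They may share cell types or regulators, which was not tested, so they are not taken as independent. Leaving out 1 array at a time moved the count of 16 to 10 without HO replicate 1 (16.1%, background 10.1%). Without HE replicate 1 it was 9 (14.5%, background 9.13%). The count of 11 was 7 without HE replicate 1 or WT replicate 1. Under other filters the count was 10 of 40 members at the 60th percentile, and with no filter the share was 13.3% of 135 members against 9.72% of all probe sets.

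Cyp2e1 led this comparison (unadjusted p 0.000471, adjusted p 0.254 in limma). In the order HO, HE and WT, it read 2054, 1826 and 1427 in source set 3, 657, 882 and 937 in source set 9 and 1369, 1608 and 1362 in source set 11. All 3 arrays of source set 9 were below all other arrays. Source set 3 minus 9 was 1.10 ± 0.18 on the log2 scale, a 2.14-fold difference, source set 3 minus 11 was 0.28 ± 0.18, and source set 9 minus 11 was -0.82 ± 0.18. Of 4 tested adipocyte markers, 2 had an unadjusted p under 0.05 between source sets, against 12.0% of all probe sets: Adipoq, the fat cell hormone adiponectin, read 1194, 858 and 548 in source set 3, 103, 205 and 502 in source set 9 and 691, 710.4 and 629.6 in source set 11, and Fabp4, a fatty acid carrier of fat cells, read 2321, 2527 and 1567 in source set 3, 521, 855 and 1461 in source set 9 and 1438, 1569 and 1325 in source set 11, in the same order. Of 9 adipocyte markers listed, 6 were on the array and 4 were tested (the other tested ones, Lipe and Retn, had unadjusted p of 0.577 and 0.078). The summed signal of the 6 ran from 4983 to 6557 in source set 3, from 3118 to 4171 in source set 9 and from 5005 to 5228 in source set 11. None of the 6 was at 0. The part of fat cells in the Cyp2e1 reading was not tested. Hepatocyte markers, with summed signals of 1844 to 2007, 1964 to 2312 and 1656 to 2225 in source sets 3, 9 and 11, stayed under the threshold.

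The Cyp1 pair ran in opposite order. Cyp1b1 (unadjusted p 0.00391, adjusted p 0.312 in limma) read 992, 913 and 912 in source set 3, 772, 703 and 699.7 in source set 9 and 605, 568 and 715 in source set 11, in the order HO, HE and WT. Source set 3 was above the others, with source set 3 minus 11 at 0.58 ± 0.13. Cyp1a1 (unadjusted p 0.036, adjusted p 0.384) read 1497, 2232 and 2231 in source set 3, 2927, 3156 and 1909 in source set 9 and 2975, 3702 and 2460.0 in source set 11 in the same order. Source set 3 held its lowest HO and HE arrays, and source set 3 minus 11 was -0.62 ± 0.20. Both genes hold the AHR core motif in the windows printed above. Among 5 tested AHR-responsive genes outside the families, 2 had an unadjusted p under 0.05: Nqo1, a quinone reductase also under NRF2, was highest in source set 3 at 598, 704 and 777, against 495, 452 and 474 in source set 11, and Xdh, xanthine dehydrogenase, was lowest in source set 3 at 1147, 1466 and 1491, against 2004, 1871 and 1306 in source set 11. Cyp1a1, Cyp1b1, Nqo1 and Xdh thus did not share an order across source sets. The other tested genes of that list are not described between source sets here, and the part of AHR was not tested. Arnt, the partner of AHR, read 749, 776 and 788 in source set 3 and 1092, 966 and 1223 in source set 11.

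**Figure D3:**
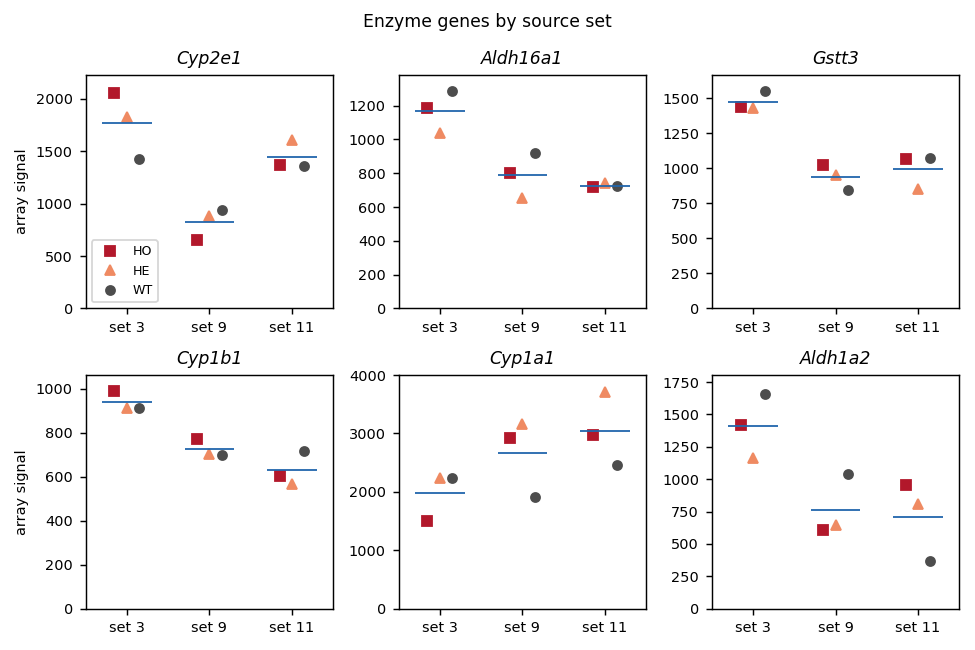
Array signal (linear, from 0) of 6 enzyme genes by source set, 1 HO (square), 1 HE (triangle) and 1 WT (circle) array in each; the line is the mean of the 3 arrays. Cyp2e1 was lowest in source set 9, Aldh16a1, Gstt3, Cyp1b1 and Aldh1a2 were highest in source set 3, and Cyp1a1 was lowest there.

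Aldh1a2 had the broadest range of all tested members, 2.17 on the log2 scale. It encodes retinaldehyde dehydrogenase 2, which makes retinoic acid and is known from the mesothelium that covers the lung. In the order HO, HE and WT it read 1416, 1161 and 1655 in source set 3, 606, 650.2 and 1037 in source set 9 and 957, 808 and 369 in source set 11. The 3 arrays of source set 3 were the highest, and the WT array of source set 11 was the lowest. Source set 3 minus 11 was 1.09 ± 0.35 (unadjusted p 0.0288, adjusted p 0.365 in limma). Of 3 tested mesothelial markers, a list chosen after the data were seen, 1 had an unadjusted p under 0.05 between source sets: Msln (0.00756), against 0.0658 for Upk3b and 0.158 for Gpm6a. Msln read 1551, 1188 and 1509 in source set 3, 806, 915 and 864 in source set 9 and 1064, 738 and 457 in source set 11, and Upk3b read 3762, 3024 and 4644 in source set 3, 1549, 2566 and 2457 in source set 9 and 3515, 1767 and 1139 in source set 11, in the same order. Upk3b overlapped between source sets 3 and 11. Gpm6a read 5949, 5487 and 7029.6 in source set 3, 5064, 5549 and 6123 in source set 9 and 5387, 5083 and 4278 in source set 11. Of 6 such markers, 4 were on the array and 3 were tested, and the 4 had summed signals from 9950.4 to 13444 in source set 3, from 7687 to 9633 in source set 9 and from 6003 to 10134 in source set 11. None of the 4 was at 0, and the part of mesothelial cells in the Aldh1a2 reading was not tested.

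**Figure D4:**
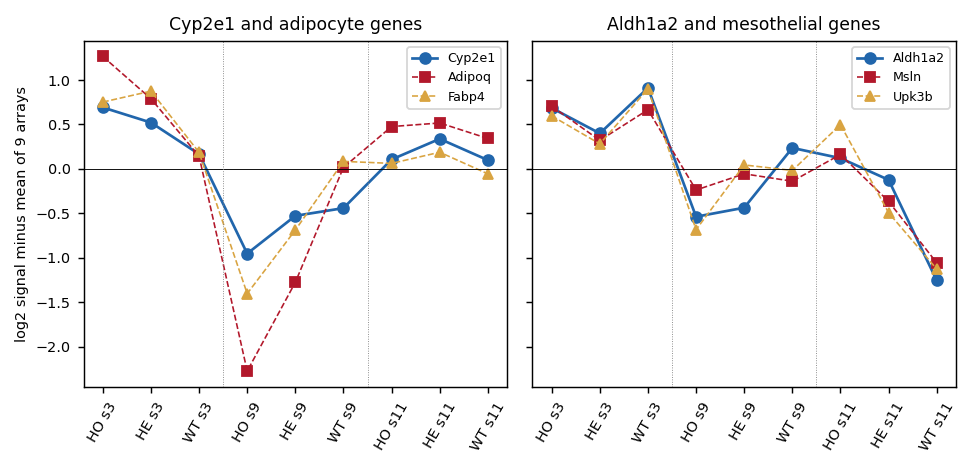
Log2 signal of each array minus the mean of the 9 arrays, by source set (s3, s9 and s11) with HO, HE and WT in each, for Cyp2e1 with the adipocyte markers Adipoq and Fabp4 (left) and Aldh1a2 with the mesothelial markers Msln and Upk3b (right). Cyp2e1 and Adipoq were at their lowest on the HO array of source set 9, and Aldh1a2, Msln and Upk3b on the WT array of source set 11. The markers shown are those of lowest unadjusted p between source sets, out of 4 tested adipocyte and 3 tested mesothelial markers. Lipe, Retn and Gpm6a are not shown.

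Further aldehyde dehydrogenases were high in source set 3. Aldh16a1, an atypical member of the family, read 1187, 1037 and 1286 in source set 3, 798, 652 and 921 in source set 9 and 716, 741 and 722 in source set 11, in the order HO, HE and WT. All 3 arrays of source set 3 were above all others, with source set 3 minus 9 at 0.57 ± 0.13 and source set 3 minus 11 at 0.68 ± 0.13 (unadjusted p 0.00124, adjusted p 0.281 in limma). Aldh1l1, a folate enzyme, read 1362, 766 and 1048 in source set 3, 754, 568 and 803 in source set 9 and 583, 668 and 680.2 in source set 11, and the HO array of source set 3 stood apart. Its source set 3 minus 11 difference was 0.68 ± 0.18. Aldh1a7 was 0.35 ± 0.12 higher in source set 3 than in source set 9, with 8734, 8462 and 8579.8 against 6754, 6599 and 6908.

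Transferases of 5 classes were also among the 16. Gstt3 read 1435, 1432 and 1554 in source set 3, 1021, 950.1 and 843 in source set 9 and 1068, 855 and 1073 in source set 11, in the order HO, HE and WT. Every array of source set 3 was above every other, with source set 3 minus 9 at 0.66 ± 0.13, a 1.57-fold difference (unadjusted p 0.00178, adjusted p 0.286 in limma). Gstt2, a neighbour in class, was instead highest in source set 9, at 1213, 1073 and 876, against 832, 517 and 707 in source set 11. Gsta2 had 1098, 869 and 817 in source set 3 and 671, 641 and 695 in source set 9, and Gstp1 had 12899, 12501 and 12964 and 10667, 10204 and 9932. Gsto1 differed by 0.36 ± 0.12 for source set 3 minus 9. Gstm1 differed by 0.47 ± 0.15 for source set 3 minus 11 at 1425626_at, which is not its probe set of highest mean. At the probe set of highest mean, 0 of 6 Gstm genes and 0 of 3 Ces genes had an unadjusted p under 0.05 in the F test. Cyp2b10 at 1422257_s_at and Ces1d at 1435371_x_at were highest in source set 9, with source set 3 minus 9 at -0.33 ± 0.11 and -0.36 ± 0.12. They too were counted only at a probe set other than that of highest mean. Cyp2c29 was lowest in source set 9, at 380.1, 380.0 and 487 against 446, 447 and 742 in source set 3.

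Other lists were read between source sets beside the enzymes. None of their genes passed an adjusted p under 0.05, and 12.0% of all probe sets had an unadjusted p under 0.05. Of 11 tested club cell markers, 5 had an unadjusted p under 0.05, and their summed signal ran from 313538 to 345728 in source set 3, from 273591 to 306251 in source set 9 and from 242913 to 283285 in source set 11. All 3 tested ciliated cell markers did so, with sums from 13268 to 14355, from 9931 to 10859 and from 10573 to 11425 in the same order. Of 11 tested clock and PAR bZIP genes, which drive daily rhythms of many detoxification genes, 5 did so: Per2, Per3, Hlf and Tef were lowest in source set 3, and Nr1d1 was lowest in source set 9. Per2 read 1044, 1084 and 957 in source set 3, 1512, 2119 and 1591 in source set 9 and 1924, 2311 and 1919.5 in source set 11, in the order HO, HE and WT, with no overlap between source set 3 and the others. Hlf, a PAR bZIP regulator, had 1348, 1109 and 1135 in source set 3 against 2006, 1822 and 1939.7 in source set 9. Of 16 tested NRF2-responsive genes, 3 did so, Nqo1, Txnrd1 and Srxn1, and of 6 P450 electron donors 0 did. Pon1, an esterase that splits organophosphates, had 9547, 7999 and 8528 in source set 3 and 6184, 5350.3 and 6469.5 in source set 9. The part of cell makeup or time of day in the enzyme readings was not tested.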

How the data were processed

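The values are deposited linear intensities, 1 for each probe set on each array. Judged by the values, the authors gave every array the same trimmed mean (1500 without the lowest and highest 2%), and their summary software was not given in the sources used here. That scaling was kept. Values under 25.5, the 5th percentile, were set to it before log2 conversion. Control probe sets (64) were dropped, as were those whose mean log2 fell short of 8.90, the 40th percentile, so that 13576 of 22626 were tested. Group means were fitted to all 9 arrays with limma 3.58.1 in R 4.3.3 (lmFit and eBayes, 6 residual degrees of freedom before moderation), with Benjamini-Hochberg adjustment over the 13576 probe sets and a threshold of 0.05. Errors of differences are moderated standard errors. Array number and signal over background, not read depth, limit the precision, and no detection calls were used. The replicate number was tested with a moderated F test and, as an alternative, entered as a block. Same-numbered HO and WT arrays deviated together from their group means (r of 0.19, 0.14 and 0.28 across probe sets), so the numbers paired those groups by the criterion used (every value over 0.1), and the block changed no call.

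Symbols came from the platform annotation (20380 probe sets with 1 symbol, 691 with several, 1555 with none), and 10 probe sets of the families with several symbols were not members. All 101 member genes matched a RefSeq table of GRCm38.p6, from which upstream sequences were taken. The sources used here name no build for the array, so the only coordinates given are those of the upstream windows, on the RefSeq build. Named genes followed a rule: the 6 of lowest p in each comparison, the up to 4 of highest mean signal in each family, a short list of enzymes known in lung, up to 3 genes of lowest p from each other list, and the 4 left-out genes with Cftr. Others were chosen after their values were seen: members counted in a tally of 5 or fewer, all members counted between source sets, and genes given as neighbours. Members and lists were chosen with earlier results of these data known. The fit was also run on simulated data with independent normal noise. The simulated genotype test held no source set effect, so that run does not check the fit against one.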

Additional observations from a re-analysis of the deposited data

Results flagged for a closer look

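In each of 46 named member probe sets the 6 transgenic arrays were checked for 1 array far from the others (gap over range above 0.625, Dixon's critical value at 95%), and 4 were found. Chance gives such a flag in about 1 of 20 groups. Aldh1l1 read 1362 on HO replicate 1, against 568 to 766 on the other transgenic arrays. Cyp4f15 read 1025 on HO replicate 1, against 729 to 823. Cyp2d22 at 1419040_at read 3789 on HE replicate 2, against 2684 to 3001. Gstm3 read 949 on HE replicate 1, against 1246 to 1427.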

How the results depend on the processing

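No member was called in any genotype comparison under the 21 settings tried, or between source sets under the 19 settings that apply there. The differences of the 6 members of lowest p in each genotype comparison, 487 values under alternatives, kept their direction and stayed short of the adjusted threshold. These members were picked for low p in the same data, and a changed floor, replicate block or variance model left their differences unchanged. Their kept direction is therefore not separate evidence for a difference. The settings were another scaling, filter, floor, variance model or array weights, the replicate block, 1 probe set per gene, a fit limited to the compared arrays, HO replicate 2 counted as HE, and each array left out. The small counts at an unadjusted p under 0.05 moved. They are out of 62 members, except 135 with no filter, 40 with the 60th percentile filter, 49 with 1 probe set per gene and 63 without HE replicate 2 or 3. For the genotype comparisons the shares of all probe sets under these settings are not given here, so the moves do not set the members apart. For HO against WT the count of 1 was 0 with quantile normalization, median centring, array weights, only the arrays compared or HO replicate 2 as HE, and 0 to 4 with an array left out. For HE against WT the count of 2 was 4 with quantile normalization, the 60th percentile filter or a trended robust eBayes, 7 with no filter, and 1 to 7 with an array left out. For HO against HE the count of 1 was 3 with no filter, 2 with only the arrays compared, 0 with the 60th percentile filter, 1 probe set per gene or HO replicate 2 as HE, and 1 to 3 with an array left out. For TG against WT the count of 3 was 1 with HO replicate 2 as HE and 0 to 4 with an array left out. Between source sets the count of 16 was 10 with the 60th percentile filter, which tests 40 members, and 9 to 16 with an array left out, and the 11 highest in source set 3 were 6 and 7 to 12. With the replicate number as a block the counts were 1 for HO against WT, 5 for HE against WT, 3 for HO against HE and 3 for TG against WT; same-numbered arrays did not all correlate over 0.1 for HE and WT (0.30, 0.05 and 0.04) or HO and HE (0.16, 0.15 and 0.03), so these share only a number. The cause of the moves was not tested. Members near the signal threshold, 4 tested and 5 untested within 0.2 log2 of it, carry the least signal over background.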

Other observations

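Of the drug-metabolising genes outside the member families, 4 of 21 other oxidising, reducing or hydrolysing enzymes, 2 of 11 other conjugating enzymes and 1 of 7 transporters had an unadjusted p under 0.05 between source sets, against 12.0% of all probe sets tested, and 0 had an adjusted p under 0.05 in limma. The values of some of these genes are given here as a description. Sult1d1, a sulphotransferase that acts on catechols, read 1575, 1310.4 and 1299.5 in source set 3, 348, 534 and 669 in source set 9 and 946, 704 and 815 in source set 11, in the order HO, HE and WT, so each genotype had its lowest array in source set 9. Its unadjusted p was 0.000429 and its adjusted p 0.254. Mgst2, a microsomal glutathione transferase, read 584, 687 and 950.0 in source set 3, 627, 475 and 483 in source set 9 and 472, 470.4 and 489.5 in source set 11, and the WT array of source set 3 was the highest. Aox3, an aldehyde oxidase, had 4120.1, 4495 and 4395 in source set 3 and 3544, 3278 and 2907 in source set 11, with an adjusted p of 0.358. Abcc1, which exports glutathione conjugates, had 1536, 1599 and 1811 in source set 3 and 1396, 1216 and 1290.1 in source set 11, with an adjusted p of 0.384. Of the marker lists not described with the enzymes, 4 of 9 fibroblast and smooth muscle, 2 of 6 cardiac muscle, 1 of 7 neutrophil and 1 of 8 lymphocyte markers had an unadjusted p under 0.05 between source sets. Alveolar type I, alveolar type II, endothelial and macrophage markers had 0 of 7, 0 of 9, 0 of 8 and 0 of 5.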
